A study of Danio rerio with 12 samples.

Results

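Whole wild-type zebrafish embryos held in 25 µM rosiglitazone from 6 to 24 hours post-fertilisation were compared with embryos held over the same hours in the vehicle, 0.1% DMSO. The comparison used 8 of the 12 RNA sequencing libraries of the study, 4 per group, and all 14433 of 31901 listed genes that reached 1 FPKM (fragments per kilobase, scaled to sequencing depth) in at least 4 of the 12 libraries. The other 4 libraries came from embryos held in 75 µM GW9662 over the same hours. In the main comparison they entered through the filter, the shared estimate of spread and the average levels that rank genes and lists by abundance. Beyond that they were used only where GW9662 is named. A gene high in only 1 group could pass the filter through that group. Groups were taken from sample titles and library names, because another field of the labels gives DMSO as the treatment of the rosiglitazone libraries and TBBPA as that of the GW9662 libraries.

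Rosiglitazone is a thiazolidinedione, a drug that binds and activates PPARγ. This nuclear receptor pairs with RXR on DNA and is known in mammals as the main switch of fat cell formation and lipid storage. At this stage a zebrafish embryo has no fat tissue and lives on yolk lipid, while somites, brain, skin, blood and pigment cells are forming. The comparison asks which transcripts of the embryo differ when the agonist is present from early gastrulation onwards.

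The libraries held between 12.77 and 19.04 M fragments assigned to genes in DMSO and between 15.16 and 21.48 M with rosiglitazone. Whether replicates are separate clutches, or how many embryos were pooled, is not stated in the labels, so p-values here measure only the spread between these libraries. A batch tag reads 24 to 27 hours in the DMSO libraries and 32 to 35 hours in the rosiglitazone libraries, with a different hour for each library. What the tag records is not stated, and neither batch nor age, if the tag is an age, can be told apart from the group. Rosiglitazone replicate 1 stood somewhat apart. Genes for ribosomal proteins took 11.3% of its fragments, against 9.90 to 10.5% in the other rosiglitazone libraries and 9.76 to 9.94% in DMSO. Markers of muscle, heart, neurons, skin, blood, vessels, hatching gland and yolk layer were present in all 8 libraries, although mylpfa, a fast muscle light chain, was near 0 and krt5, an epidermal keratin, was below the filter. The liver marker fabp10a and the islet hormone ins were also below the filter. In bulk RNA, fewer cells of a type and less RNA per cell cannot be told apart, which holds for every result below.

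Rosiglitazone embryos differed from DMSO embryos in 2450 of 14433 genes at an adjusted p under 0.05 (limma with Benjamini-Hochberg adjustment), which is 17.0% of those tested. Of these, 1341 were higher (9.29% of genes tested) and 1109 lower (7.68%). Most differences were small. Only 541 of the called genes changed at least 1.5-fold, 73 rose and 59 fell at least 2-fold, and the median size among called genes was 0.38 on the log2 scale. The 4 libraries of one group lay wholly above or below the 4 of the other for 2960 genes (20.5%). Calls were more frequent among abundant genes, from 8.83% of genes averaging under 2 FPKM to 25.4% of those averaging at least 100 FPKM. Every count of list members below is to be read against the shares over all genes tested, 9.29% higher and 7.68% lower. The lists differ in abundance, and their counts were not adjusted for it. Some genes, such as abcb11a and hsp90b1, are on more than 1 list, so the list counts are not separate results. All log2 changes are differences of log2(FPKM + 0.5) with the standard error (SE) of the model, and folds are ratios on that scale, which understates the change of genes with low values.

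**Figure D1:**
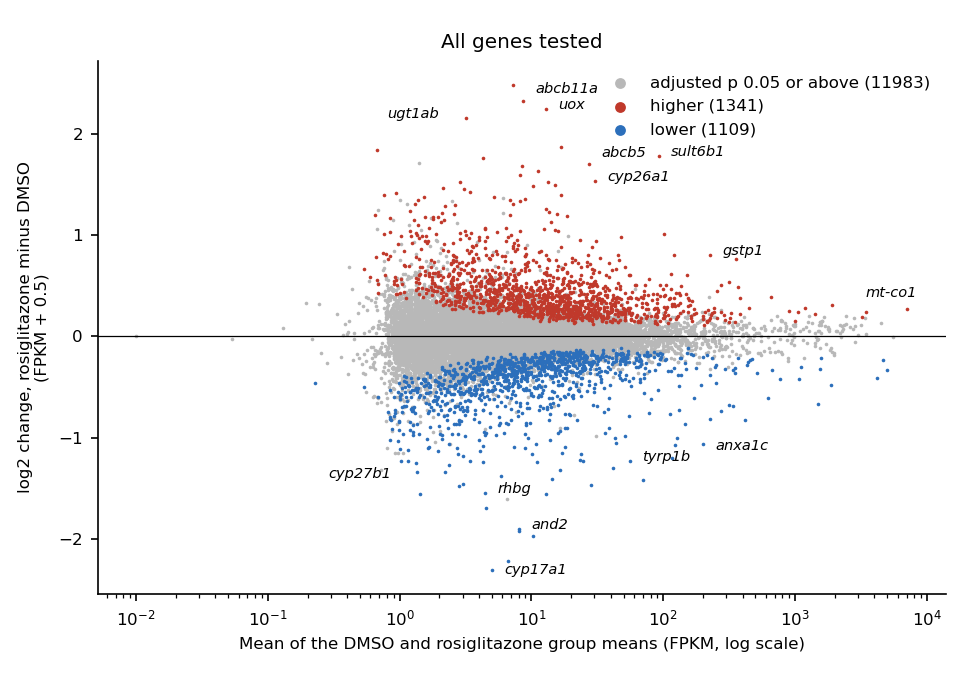
Each point is a gene. The x axis is the mean of both group means in FPKM on a log scale, and the y axis is the log2 change between rosiglitazone and DMSO. Red points (1341) were higher and blue points (1109) lower at an adjusted p under 0.05, and the named genes above and below the mass of points are described in the text.

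The largest rises included transporters and enzymes that handle drugs, bile salts and urate. Transcripts of the ATP-driven exporter gene abcb11a, whose mammalian relative is the bile salt export pump, were at 2.47, 2.56, 2.62 and 2.38 FPKM in the 4 DMSO libraries. They were at 13.1, 14.6, 16.7 and 13.8 FPKM in the 4 rosiglitazone libraries. The groups lay far apart, with a 4.99-fold rise (log2 2.32 ± 0.10 SE, adjusted p = 3.24e-08). A second exporter of the same family, abcb5, went from 12.8, 11.5, 13.4 and 12.3 to 39.4, 44.0, 42.4 and 41.7 FPKM, a 3.26-fold rise (adjusted p = 1.18e-08). The lowest rosiglitazone library was far above the highest DMSO library. The gene abcb11a (ENSDARG00000011573) is listed on chromosome 9 from 48755638 to 48817119, on the plus strand. The gene abcb5 (ENSDARG00000021787) is listed on chromosome 16 from 19537038 to 19568795, on the minus strand.

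Among 13 genes tested on a list of drug and bile acid receptors and enzymes, 5 were higher and none lower, with a median log2 change of 0.20 against 0.00 over all genes. One of the 5 was the receptor nr1i2 itself, known in mammals as the pregnane X receptor that senses drugs and bile acids (log2 0.65 ± 0.15, adjusted p = 0.0102). The count was 3 without DMSO replicate 2, DMSO replicate 3 or rosiglitazone replicate 4. Of 8 targets of the aryl hydrocarbon receptor, the sensor of dioxins, 1 was called. It was tiparp, a repressor of that receptor, at 0.43.

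Enzymes that attach sugar, sulphate or glutathione to small molecules were called often: 9 of 22 were higher and 2 lower. The glucuronosyltransferase gene ugt1ab (ENSDARG00000006220, chromosome 9, from 9969987 to 10003782, minus strand) was at 1.06, 0.549, 1.04 and 0.807 FPKM in DMSO. With rosiglitazone it was at 5.82, 5.80, 4.83 and 5.60 FPKM, a 4.46-fold rise (adjusted p = 2.43e-07). The related gene ugt5a1 was all but silent in DMSO, with 1 fragment over the 4 libraries, and had 194 fragments with rosiglitazone, at 1.17 to 1.38 FPKM in each library. No DMSO library reached 1 FPKM, so ugt5a1 met the filter only through libraries of treated embryos. Its adjusted p, 5.74e-07, is not independent of how it entered the test, and no fold is given against a single fragment. The sulfotransferase gene sult6b1 was abundant already in DMSO, at 42.7, 40.2, 38.2 and 41.0 FPKM, and reached 183, 120, 166 and 106 FPKM (3.44-fold, adjusted p = 5.94e-06). The glutathione transferase gene gstp1 went from between 157 and 170 to between 272 and 309 FPKM (log2 0.80 ± 0.05, adjusted p = 4.59e-07). The members that fell were the sulfotransferase sult1st1, by 0.70 on the log2 scale, and the glucuronosyltransferase ugt5b3, by 0.47. The call of ugt5b3 was lost without DMSO replicate 1, 3 or 4 or rosiglitazone replicate 1 or 4 (adjusted p from 0.0565 to 0.0784).

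**Figure D2:**
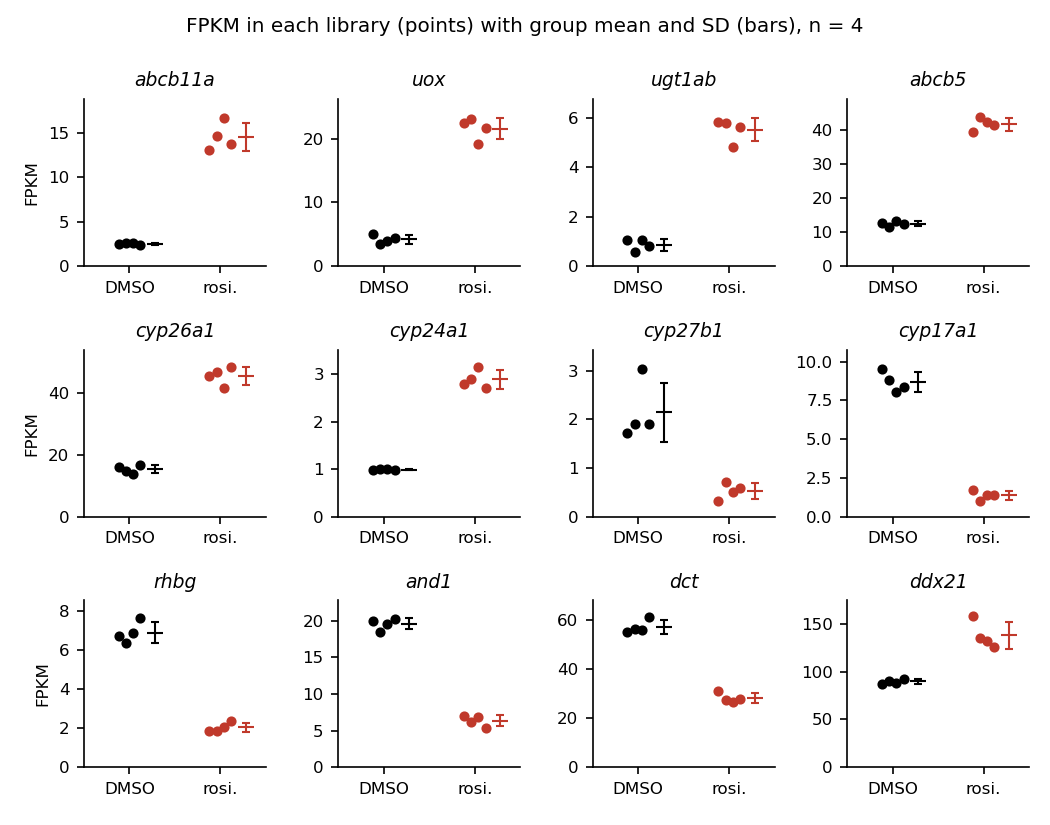
FPKM of 12 genes in each of the 4 DMSO libraries (black points) and 4 rosiglitazone libraries (red points, axis label rosi.), with the group mean and SD as bars. The y axes start at 0 and differ between panels. In all 12 panels the groups do not overlap: abcb11a, uox, ugt1ab, abcb5, cyp26a1, cyp24a1 and ddx21 are higher with rosiglitazone, and cyp27b1, cyp17a1, rhbg, and1 and dct are lower.

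Carriers of organic anions, cations and short-chain acids moved in both directions, with 14 of 31 higher and 5 lower. Their list was added after values were seen. The cation carrier gene slc22a3 rose 2.80-fold, from 4.63, 5.07, 6.14 and 4.98 to 16.6, 13.6, 16.7 and 14.9 FPKM (adjusted p = 3.37e-07). The monocarboxylate carrier gene slc16a9b rose 2.81-fold, from between 6.44 and 9.24 to between 19.96 and 25.3 FPKM (adjusted p = 1.27e-06). The sulphate carrier gene slc13a4 rose from between 20.4 and 21.8 to between 40.01 and 41.5 FPKM (adjusted p = 6.47e-08), and the anion carrier slco1d1 rose by 0.87 ± 0.07. The drug and toxin extrusion gene slc47a1 rose by 0.63 ± 0.07. The organic anion carrier gene slc22a7a fell, from 13.97, 15.3, 14.1 and 12.7 to 5.32, 6.06, 6.48 and 6.17 FPKM (log2 -1.16 ± 0.09, adjusted p = 2.01e-06). Among 27 ABC transporters, 8 rose and 3 fell, and the rises other than abcb11a and abcb5 were at most 0.57, that of abcb6a.

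Cytochrome P450 enzymes oxidise sterols, hormones, vitamins and drugs. Of 36 P450 genes, on a list added after values were seen, 12 were higher and 4 lower. The fallers included genes that make hormones. Without DMSO replicate 1 or 2 or rosiglitazone replicate 3, 2 genes were lower. The steroid hydroxylase gene cyp17a1, needed for androgen and cortisol synthesis, showed the largest fall among all called genes. It went from 9.55, 8.81, 8.03 and 8.33 to 1.70, 1.002, 1.38 and 1.41 FPKM, a 4.94-fold fall (log2 -2.30 ± 0.11, adjusted p = 6.33e-08). The gene is listed as ENSDARG00000033566 on chromosome 13 from 28601195 to 28610965, minus strand. On a list of 15 vitamin D and steroid genes assembled after values were seen, 5 were higher and 4 lower, or 2 lower without the same libraries. In the steroid pathway the dehydrogenase hsd3b2 rose by 0.61 ± 0.11 and hsd11b2, which inactivates cortisol, was lower by -0.53 ± 0.15 (adjusted p = 0.0301). The call of hsd11b2 was lost when any of 5 libraries was left out, with adjusted p from 0.0558 to 0.0857.

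The enzymes that make active vitamin D were lower and the one that destroys it was higher. The activating hydroxylase gene cyp27b1 was at 1.72, 1.90, 3.04 and 1.90 FPKM in DMSO and at 0.322, 0.718, 0.510 and 0.587 FPKM with rosiglitazone (log2 -1.34 ± 0.18, adjusted p = 0.000204). The first-step hydroxylase cyp2r1 was lower by -0.71 ± 0.18 (adjusted p = 0.0183). That call was lost without DMSO replicate 1, DMSO replicate 2 or rosiglitazone replicate 3 (adjusted p from 0.0507 to 0.0596). The inactivating hydroxylase gene cyp24a1 went from 0.977, 1.003, 1.001 and 0.988 to 2.80, 2.904, 3.15 and 2.71 FPKM (log2 1.18 ± 0.07, adjusted p = 2.43e-07). The 4 DMSO values of cyp24a1 were almost equal, and every rosiglitazone value lay far above them. Both cyp27b1 and cyp24a1 are low in these embryos, with 293 and 138 fragments over the 4 DMSO libraries. No rosiglitazone library reached 1 FPKM of cyp27b1, so none helped it meet the filter.

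Retinoic acid patterns the hindbrain and the body axis, and cyp26a1 is the enzyme that degrades it. The gene was at 16.0, 14.8, 13.8 and 16.5 FPKM in DMSO and at 45.2, 46.5, 41.4 and 48.1 FPKM with rosiglitazone, a rise of 1.54 ± 0.08 on the log2 scale (adjusted p = 6.33e-08). It is also a tailbud gene. Of 32 retinoic acid genes, 9 were higher and none lower, although 2 were lower without rosiglitazone replicate 1 and 1 without rosiglitazone replicate 3. Over all the alternatives run, the count of higher genes ranged from 4 to 9. The other higher genes included lrata, which stores retinol as its ester (log2 0.86 ± 0.11), and the retinaldehyde reductase dhrs3b (0.63 ± 0.07). The gene dhrs9 rose by 0.49. A related gene of unknown substrate, dhrs13l1, went from 7.57, 6.86, 6.52 and 6.33 to 26.1, 30.8, 22.3 and 26.4 FPKM (3.66-fold, adjusted p = 4.73e-08). The paralogs cyp26b1 and cyp26c1 were not called.

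Among the drug-type P450 genes, cyp2aa8 rose by 0.78 ± 0.08 and cyp2aa4 by 0.68 ± 0.09. The cyp2aa genes are close copies of one another, so reads may not be assigned to the right member. The sterol 24-hydroxylase cyp46a1.3 went from between 0.390 and 0.973 to between 1.77 and 2.67 FPKM (adjusted p = 0.00052). No DMSO library reached 1 FPKM of cyp46a1.3, which met the filter only through libraries of treated embryos. The gene cyp27c1, a retinol desaturase, rose by 0.46 ± 0.05.

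**Figure D3:**
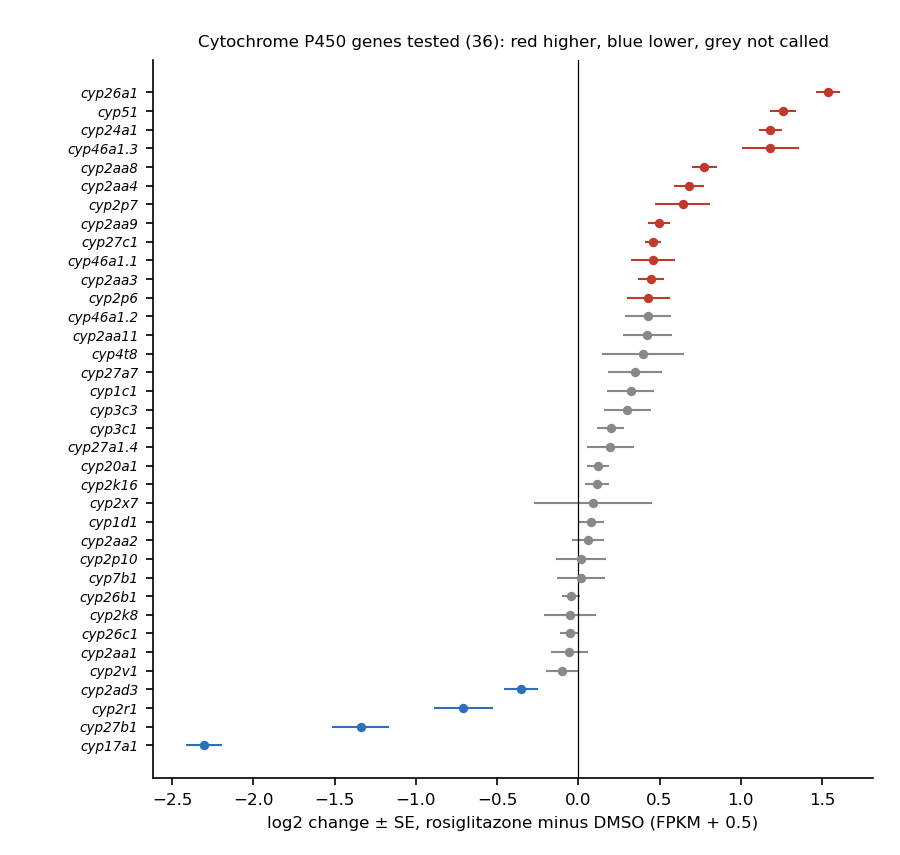
Log2 change between rosiglitazone and DMSO for 36 cytochrome P450 genes, with the SE of the model as bars, sorted by size. Red genes (12) were higher and blue genes (4) lower at an adjusted p under 0.05. The genes cyp26a1, cyp51 and cyp24a1 stand at the top and cyp17a1 and cyp27b1 at the bottom.

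The receptor genes themselves were mostly not called. The gene pparg was at 1.13, 1.58, 1.101 and 2.28 FPKM in DMSO and at 1.57, 1.602, 1.82 and 1.68 FPKM with rosiglitazone, and the groups overlapped (log2 0.14 ± 0.17, adjusted p = 0.644). Of 21 tested genes for PPAR and RXR receptors and their cofactors, 1 was higher and 1 lower, or 2 higher without rosiglitazone replicate 1. The coactivator ppargc1b rose by 0.42 ± 0.08 and the fatty acid receptor pparaa fell from between 2.64 and 2.88 to between 1.41 and 2.24 FPKM (adjusted p = 0.00963). The delta receptors pparda and ppardb were not called (adjusted p = 0.733 and 0.286), and pparab did not reach the filter.

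Genes of fat storage and known PPAR targets in mammals were higher in 14 of 33 cases and lower in none, with a median of 0.19. Without rosiglitazone replicate 3 or 4, or with the 8 libraries alone, 1 was lower. The lipoprotein lipase inhibitor gene angptl4, a standard PPAR target, went from 28.5, 28.1, 28.6 and 31.0 to 45.3, 42.9, 45.6 and 44.5 FPKM (1.53-fold, adjusted p = 3.8e-06). The fatty acyl-CoA ligase acsl4a rose by 0.55 ± 0.06 and acsl1b by 0.52 ± 0.09. The gluconeogenic enzyme pck1 rose by 0.59, the uncoupling protein ucp1 by 0.48, the adipogenic factor cebpb by 0.37 ± 0.05 and the fatty acid binding protein fabp11a by 0.36. The 38 genes of fatty acid oxidation and peroxisomes were divided, with 5 higher and 5 lower. The carnitine transferase cpt1ab rose by 0.67 ± 0.09 and the thiolase acaa2 by 0.43 ± 0.09. The peroxisome import receptor pex7 fell by 0.40. The count of lower genes was 2 or 3 without any of 6 libraries, that is all but DMSO replicate 3 and rosiglitazone replicate 1.

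Of 22 lipoprotein genes 5 were lower (22.7%) and 3 higher (13.6%), with a median of -0.02. The higher genes numbered 1 without DMSO replicate 2 or 4 or rosiglitazone replicate 3 or 4. The apolipoprotein gene apoa4b.3 was at 16.6, 22.6, 11.04 and 14.5 FPKM in DMSO and at 2.01, 2.45, 4.01 and 8.15 FPKM with rosiglitazone (log2 -1.97 ± 0.37, adjusted p = 0.00283). Its tandem copy apoa4b.1 fell from between 390 and 443 to between 221 and 287 FPKM (adjusted p = 7.6e-05). Reads of the copies may be mixed. The lipid exporter abca1a fell by 0.52 and the lipoprotein receptor scarb1 rose by 0.41 ± 0.07. Of 22 genes for plasma proteins, 5 were higher and none lower, led by prothrombin, f2, at 0.66 ± 0.07 and the copper carrier ceruloplasmin, cp, at 0.77 ± 0.09. The count was 3 without any of 5 libraries (DMSO replicates 1 and 2 and rosiglitazone replicates 1, 3 and 4), and 1 was lower without rosiglitazone replicate 3. The plasma protein list had 22.7% called and a median of 0.05, at a median level of 35.6 FPKM. Among all genes averaging 20 to 100 FPKM, 24.2% were called. A lysosomal membrane receptor, scarb2a, went from between 30.9 and 32.5 to between 59.7 and 65.4 FPKM (adjusted p = 3.24e-08). Of 58 lysosome and autophagy genes 6 were higher and 2 lower (13.8% called, against 17.0% of all genes). The lower genes numbered 1 without DMSO replicate 2 or 4 or rosiglitazone replicate 2.

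Many genes that build ribosomes were called higher, and few that encode ribosomal proteins were called. Changes were positive in 77 of 83 of the former and 78 of 86 of the latter, so the lists differed in calls and not in direction. Of 83 ribosome biogenesis genes 43 were higher and none lower, with a median log2 change of 0.22. The RNA helicase gene ddx21, which acts in ribosomal RNA transcription and processing, went from 87.4, 90.6, 88.2 and 92.5 to 158, 135, 132 and 126 FPKM (1.53-fold, adjusted p = 2.67e-05). The list includes the Myc factors that drive such genes. The gene mych went from 34.4, 35.9, 31.2 and 35.9 to 60.2, 57.1, 55.9 and 59.6 FPKM (adjusted p = 1.27e-06), and mycn rose by 0.43 ± 0.04. The processing factor bop1 rose by 0.38 ± 0.05, the large subunit of RNA polymerase I, polr1a, by 0.37 and nucleolin, ncl, by 0.28 ± 0.06. The largest rise in the list was that of mych, at 0.75. Of 86 ribosomal protein genes 1 was higher and none lower, with a median of 0.09. The called gene, rps19bp1, encodes a binding partner of a ribosomal protein (log2 0.21 ± 0.06, adjusted p = 0.0239). It lost its call without DMSO replicate 3 or 4 or rosiglitazone replicate 1 or 3 (adjusted p from 0.0529 to 0.0606). The count of ribosomal protein genes was 7 without rosiglitazone replicate 2, and 9 when FPKM were scaled to library totals or 27 after quantile normalization.

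The subunit of RNA polymerases I and III encoded by polr1d was not called. Its values were 12.9, 13.5, 13.1 and 2.27 FPKM in DMSO and 3.82, 1.97, 2.33 and 2.23 FPKM with rosiglitazone, so that DMSO replicate 4 lay among the rosiglitazone libraries (log2 -1.60 ± 0.54, adjusted p = 0.0576). Without that library the adjusted p was 0.00401, and it also passed 0.05 after quantile normalization (0.0497) or with a stricter filter (0.0434).

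**Figure D4:**
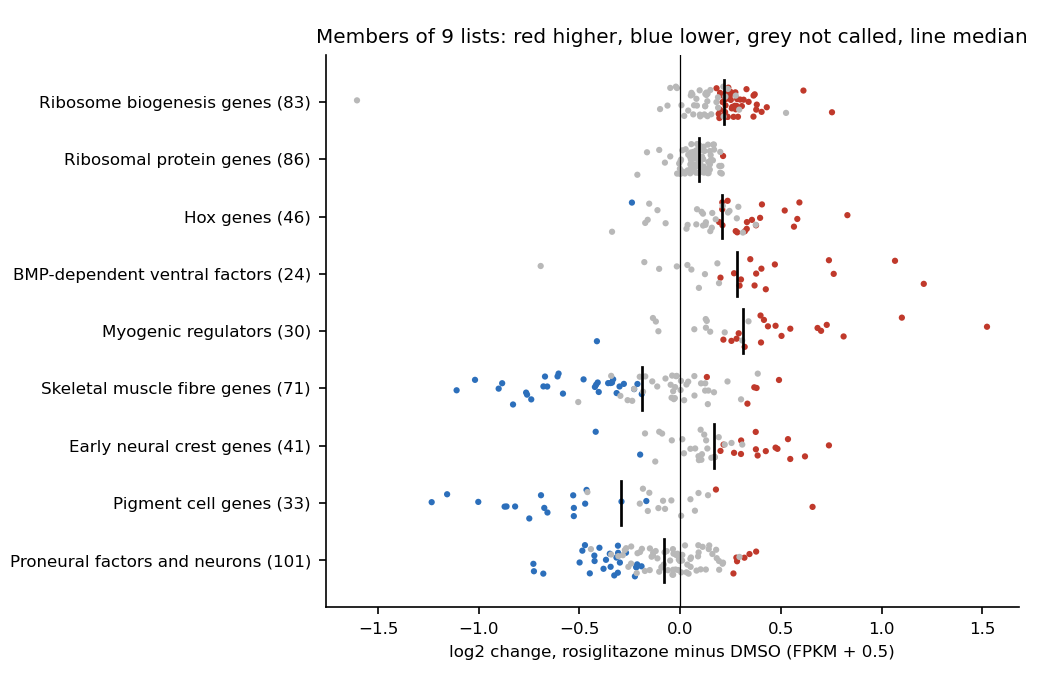
Log2 change between rosiglitazone and DMSO for every tested member of 9 gene lists, with the number of genes in parentheses. The list of BMP-dependent ventral factors was assembled after values were seen. Red points were higher and blue points lower at an adjusted p under 0.05, grey points were not called, and the black line is the median. The medians of ribosome biogenesis (0.22) and myogenic regulators (0.31) lie right of 0, and those of muscle fibre (-0.19) and pigment cell genes (-0.29) lie left of it.

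The largest rise among the listed genes of nucleotide metabolism was that of a urate breakdown gene. The urate oxidase gene uox (ENSDARG00000007024, chromosome 11, from 8160894 to 8168011, minus strand) was at 5.02, 3.44, 3.98 and 4.36 FPKM in DMSO and at 22.4, 23.1, 19.2 and 21.7 FPKM with rosiglitazone (4.73-fold, adjusted p = 4.73e-08). The enzyme of the next step, uraha, went from between 59.4 and 62.7 to between 78.7 and 94.3 FPKM (adjusted p = 0.00236). Xanthine dehydrogenase, xdh, which makes urate, was lower at 0.2997 to 0.623 FPKM against 1.05 to 1.36 FPKM (log2 -0.82 ± 0.14, adjusted p = 0.00127). No rosiglitazone library reached 1 FPKM of xdh, so none helped it meet the filter. In all, 10 of 28 purine and pyrimidine genes, on a list added after values were seen, were higher and 3 lower. The synthesis genes cad and pfas rose by 0.51 ± 0.06 and 0.43 ± 0.04. The count of higher genes was 5 without DMSO replicate 1 or rosiglitazone replicate 4 and 6 without rosiglitazone replicate 3.

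Genes of dividing cells were seldom called higher. Of 104 genes of DNA replication and mitosis 3 were higher and 12 lower (14.4% called), with a median of -0.07. The shares were 2.88% higher and 11.5% lower, against 9.29% and 7.68% of all genes, and 26 of the 104 changes were positive. The median level of the list was 29.2 FPKM, and 24.2% of all genes averaging 20 to 100 FPKM were called. Without DMSO replicate 1 or 2 or rosiglitazone replicate 4, 1 was higher. The checkpoint kinase bub1 fell by 0.25 ± 0.04 and the mitotic motor kif11 by 0.18 ± 0.04. The count of lower genes was 7 without DMSO replicate 2, and 20 or 22 after quantile normalization or scaling to library totals. None of 10 genes of the E2F factor family was called, against 17.0% of all genes. With 10 genes that count cannot be told apart from the background.

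Genes of the respiratory chain encoded in the nucleus had a median of -0.14 over 86 genes, with 6 lower and none higher. The ATP synthase subunit atp5mc1 fell by 0.32 ± 0.07. This count rested on rosiglitazone replicate 1: without it 37 of the 86 were lower, and without DMSO replicate 1 or rosiglitazone replicate 3 there were 3. The proteasome had 4 of 44 genes lower, with 22 without rosiglitazone replicate 1 and between 0 and 2 without any other 1 library except DMSO replicate 3. Of 13 genes encoded in mitochondria, 5 were lower and 1 higher, or 2 higher without rosiglitazone replicate 2. The ATP synthase gene mt-atp6 was at 4407 to 5111 FPKM in DMSO and at 3228 to 3841 FPKM with rosiglitazone (adjusted p = 0.0018). The oxidase gene mt-co1 was at 6088 to 6686 FPKM in DMSO and at 7478 to 7987 FPKM with rosiglitazone (adjusted p = 0.0102). It was the most abundant gene in every library, so that quantile normalization sets its difference to 0.

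Hox genes give position along the body axis. Of 46 tested Hox genes 19 were higher and 1 lower, with a median of 0.21. The largest rise was that of hoxb7a, from 7.34, 8.66, 8.09 and 7.91 to 15.5, 13.3, 14.2 and 15.5 FPKM (1.78-fold, adjusted p = 1.04e-05). By position, 7 of 13 genes of groups 1 to 4 and 8 of 10 genes of groups 5 to 8 were higher. Of 9 genes in groups 9 to 10, 3 were higher, and of 14 in groups 11 to 13, hoxa11a was higher and hoxc13a lower. The medians of these bands were 0.21, 0.37, 0.11 and 0.16, and the difference between bands was not tested. By cluster, 10 of 11 genes of the hoxba cluster were higher, against none of 7 in hoxda and none of 5 in hoxab. The medians of hoxba, hoxda and hoxab were 0.28, 0.11 and 0.13, and the difference between clusters was not tested. The fall of hoxc13a (log2 -0.24, adjusted p = 0.0334) lost its call without DMSO replicate 2 or 4 or rosiglitazone replicate 3 or 4 (adjusted p from 0.0520 to 0.0877).

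The ventral and posterior embryo is patterned by factors downstream of BMP. On a list of them assembled after values were seen, 14 of 24 were higher, 10 were not called and none was lower, with a median of 0.28. The homeobox repressor gene ved went from 3.31, 2.81, 2.89 and 1.84 to 6.60, 5.39, 6.47 and 6.101 FPKM (log2 1.07 ± 0.13, adjusted p = 9.14e-05). Its relative vox rose by 0.76 ± 0.08 and the posterior homeobox factor cdx4 by 1.21 ± 0.12, from between 7.07 and 11.4 to between 20.4 and 24.1 FPKM. On the wider list of BMP, TGF-beta and Nodal genes, 20 of 72 were higher and 5 lower. The Nodal co-receptor tdgf1 rose by 0.71 ± 0.08. The signal transducer smad3b fell, from between 7.69 and 8.91 to between 3.56 and 4.97 FPKM (adjusted p = 0.00053). The count of lower genes was 2 or 3 without any 1 library other than rosiglitazone replicate 1. Of 53 Fgf pathway genes 12 were higher and none lower (2 without rosiglitazone replicate 1), with the ligand fgf17 at 0.98 ± 0.10 and the feedback inhibitor spry4 at 0.53 ± 0.05. Of 32 Hedgehog pathway genes 4 were higher and none lower (12.5% called, against 17.0% of all genes).

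Regulators of early muscle and somites were higher in 18 of 30 cases and lower in 1, with a median of 0.31. The commitment factor myf5 was at 6.82 ± 1.12 FPKM in DMSO and 11.7 ± 2.14 FPKM with rosiglitazone (SD, n = 4; log2 0.73). The differentiation factor myog rose by 0.55, the fusion proteins jam2a and mymk by 0.70 and 0.50, and mef2d by 0.44 ± 0.07. The one faller was the cofactor eya4, at -0.41 ± 0.11 (adjusted p = 0.0166, and 0.0507 without DMSO replicate 4). The count was 11 without DMSO replicate 4 or rosiglitazone replicate 4.

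Of the genes of the contracting fibre, 29 of 71 were lower and 5 higher, with a median of -0.19. The fast troponin gene tnnt3b fell from 144, 135, 138 and 148 to 95.6, 76.4, 79.2 and 81.5 FPKM (log2 -0.76 ± 0.07, adjusted p = 1.14e-05). The calcium buffer pvalb1 fell from 534 ± 36.9 to 302 ± 45.4 FPKM and creatine kinase ckma from 389 ± 21.0 to 244 ± 30.1 FPKM (SD, n = 4). The calcium pump atp2a1l, the channel ryr3 and the sarcomere cap tcap fell by 1.11, 0.90 and 1.02. The structural genes did not move as one, since the actin gene acta1a rose from between 297 and 312 to between 393 and 464 FPKM (adjusted p = 2.95e-05) and the myosin myhz2 by 0.33 ± 0.08. The higher genes numbered 3 without DMSO replicate 2 or rosiglitazone replicate 1. The myosin copies are nearly identical, so their values are uncertain. The general muscle marker acta1b was not called (adjusted p = 0.0633). Of 24 heart genes 6 were higher and none lower (1 without rosiglitazone replicate 1), including gata6 at 0.66 ± 0.05 and hand2 at 0.38 ± 0.06.

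Of 34 vessel and blood progenitor genes 10 were higher and 2 lower, with 22 not called and a median of 0.07. The blood stem cell factor tal1 went from 9.91, 11.2, 10.6 and 10.03 to 14.3, 15.5, 14.5 and 15.8 FPKM (1.42-fold, adjusted p = 5.73e-05). Its partner lmo2 rose by 0.37 ± 0.06 and the vessel inducer etv2 by 0.31 ± 0.05. The zinc finger factors drl and blf, which mark lateral mesoderm and early blood and were chosen after their values were seen, rose by 0.84 ± 0.11 and 0.88 ± 0.09. The lower genes were the endothelial adhesion gene pecam1, at -0.56, and the scavenger receptor mrc1a, at -0.39. The count of higher genes was 6 without DMSO replicate 2 or rosiglitazone replicate 2. The endothelial marker kdrl was not called (adjusted p = 0.584). The neutrophil enzyme mpx fell, from between 4.99 and 5.89 to between 3.09 and 4.29 FPKM (adjusted p = 0.00464). The summed level of 3 macrophage and neutrophil markers was 15.9 to 17.4 FPKM in DMSO and 11.9 to 14.8 FPKM with rosiglitazone. Of these markers mpx and lcp1 were lower (log2 -0.53 and -0.30), while spi1b was not called (log2 0.02, adjusted p = 0.953). Of 24 inflammation, interferon and myeloid genes 4 were higher and 2 lower, with 18 not called and a median of -0.002. That is 25.0% called, against 17.0% of all genes. The lower genes on that list numbered 1 without any 1 library other than rosiglitazone replicate 4. The inflammation genes irg1l, related to an itaconate enzyme, and ptgs2b, a cyclooxygenase, rose by 1.13 ± 0.12 and 0.86 ± 0.15. Of 27 kidney genes 9 were higher and 2 lower (1 without DMSO replicate 1 or 2), with the tubule adhesion gene cdh17 at 0.52 ± 0.06 and the sulphate carrier slc26a1 at 0.64 ± 0.08.

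Of 101 proneural and neuronal genes 26 were lower and 6 higher, with a median of -0.08. The neuroendocrine factor insm1b fell from 36.5, 35.2, 34.9 and 37.8 to 22.6, 23.1, 21.1 and 22.7 FPKM (log2 -0.68 ± 0.05, adjusted p = 1.52e-06). The proneural factors atoh1b and neurod6b both fell by 0.73, and ascl1a by 0.32. The neuronal tubulin tubb5 fell by 0.38 ± 0.04. A hypothalamic homeobox gene chosen after its values were seen, otpa, fell from 21.6, 21.0, 21.2 and 20.9 to 11.05, 9.61, 10.198 and 11.9 FPKM (adjusted p = 5.74e-07), and its copy otpb fell by 0.50 ± 0.07. The neuropeptide gene grp fell 2.40-fold, from between 2.82 and 4.12 to between 0.990 and 1.56 FPKM. The general neuronal markers elavl3 and elavl4 were not called (adjusted p = 0.204 and 0.127). The 6 higher genes included the motor neuron factor isl2a and the adhesion gene alcamb, at 0.34 and 0.32. Their count was 2 or 3 without any of 5 libraries (DMSO replicates 1, 2 and 3 and rosiglitazone replicates 2 and 3).

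Neural progenitor factors moved in both directions, with 11 of 64 higher and 8 lower. The hindbrain segment factor egr2b went from 3.56, 4.58, 4.62 and 4.03 to 9.52, 9.02, 7.57 and 7.84 FPKM (1.91-fold, adjusted p = 1.86e-05). The hindbrain factor mafba and the factors irx1b and gbx1 rose by 0.39, 0.50 and 0.42. The Notch target her15.1 fell by 0.51. The 8 lower genes were 4 or 5 without any of 5 libraries (DMSO replicates 1, 2 and 4 and rosiglitazone replicates 2 and 3). The Notch pathway list, which shares some of these genes, had 7 of 45 higher and 10 lower. The progenitor markers sox2 and sox3 were not called.

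Of 41 early crest genes 16 were higher and 2 lower, with a median of 0.17. The crest factor foxd3 went from 22.6, 24.4, 26.0 and 24.6 to 36.7, 35.6, 34.4 and 36.7 FPKM (1.46-fold, adjusted p = 2.79e-05). The border factor msx1a rose by 0.74 ± 0.09, snai2 by 0.54 ± 0.05 and crestin by 0.62. The lower genes were tfap2e and sox9b, at -0.42 and -0.20 with adjusted p of 0.0491 and 0.0364. Both calls were lost without most single libraries, with adjusted p up to 0.133.

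Pigment genes were lower in 17 of 33 cases and higher in 2, or 1 without DMSO replicate 1 or rosiglitazone replicate 3 or 4, with a median of -0.29. The melanin enzyme dct fell from 55.3, 56.3, 56.1 and 61.5 to 31.3, 27.4, 26.7 and 28.1 FPKM (log2 -1.002, SE 0.06, adjusted p = 2.43e-07). The melanin enzymes tyrp1a and tyrp1b fell by 1.16 and 1.23, tyr by 0.67, and the melanosome fibre protein pmela by 0.75. The lineage factor mitfa was not called (adjusted p = 0.374), and the early pigment factor tfec rose by 0.66 ± 0.09. Yellow pigment comes from pteridines. Their first enzyme, gch2, fell from 193, 194, 182 and 192 to 105, 97.9, 105 and 109 FPKM (log2 -0.86 ± 0.06, adjusted p = 8.56e-07). On a list of 13 pteridine genes assembled after values were seen, 6 were lower and none higher. The later enzymes pts and sprb fell by 0.87 and 0.90, and pah, which uses the pteridine cofactor, by 0.90. The iridophore gene pnp4a fell by 0.47.

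**Figure D5:**
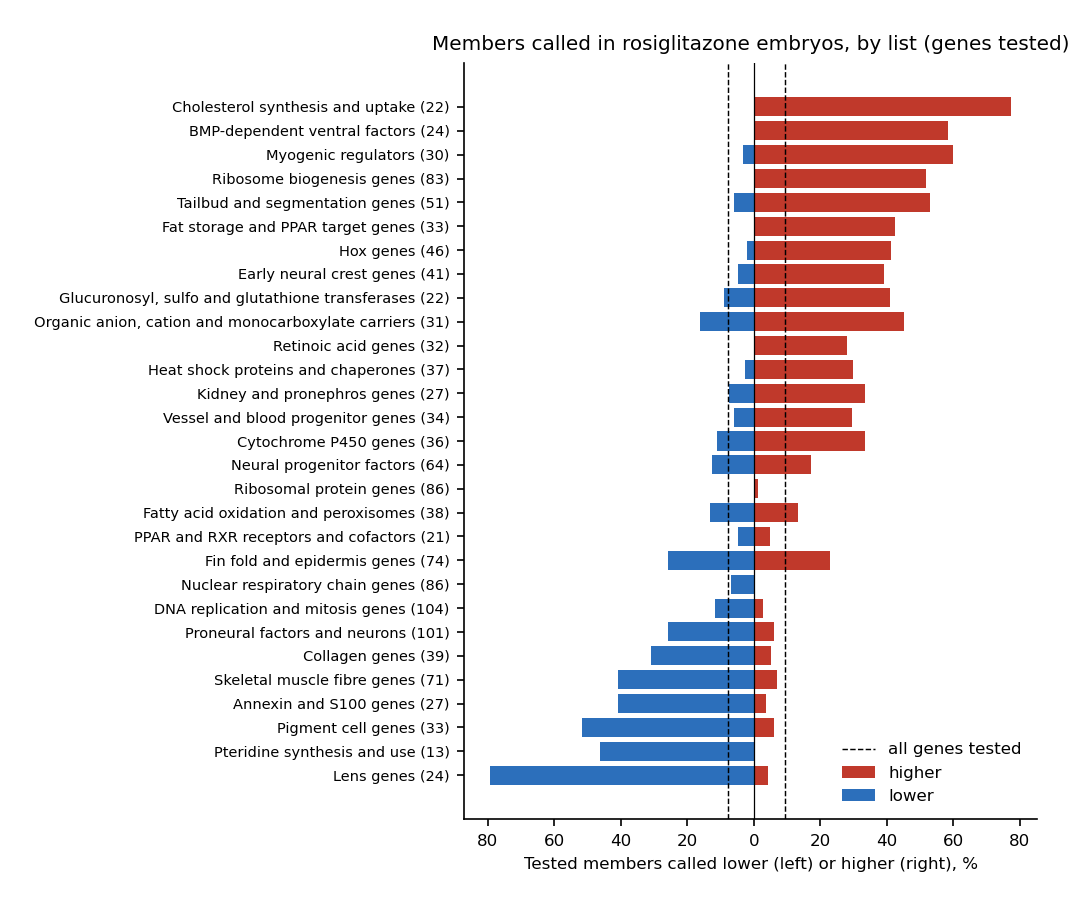
Share of tested members called higher (red, right) or lower (blue, left) with rosiglitazone for 29 gene lists, with the number tested in parentheses. The lists of BMP-dependent ventral factors, organic ion carriers, P450 genes, annexins and S100 genes, and pteridine genes were added after values were seen. The other lists were chosen with earlier results of these data known. Distance from the dashed lines is therefore no test for any list. Dashed lines mark the shares over all genes tested, 9.29% higher and 7.68% lower. Ribosome biogenesis (43 of 83 higher) and Hox genes (19 of 46) lie far right of the dashed line, and pigment cell (17 of 33 lower) and muscle fibre genes (29 of 71) far left.

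Actinodin genes of the fin fold fell, and other skin genes moved both ways. The actinodins form the collagen-like rods of the larval fin fold. The gene and1 (ENSDARG00000088514, chromosome 24, from 26277390 to 26283359, minus strand) fell from 19.98, 18.5, 19.6 and 20.2 to 6.93, 6.14, 6.87 and 5.39 FPKM (2.95-fold, adjusted p = 1.13e-06). Its relatives and2 and and3 fell 3.75-fold and 3.23-fold. Over 74 fin fold and epidermis genes, 17 were higher and 19 lower, so the list as a whole did not lean. The keratin krt92 rose from between 245 and 276 to between 414 and 498 FPKM (adjusted p = 2.17e-06). Of 39 collagen genes 12 were lower and 2 higher, with a median of -0.10. Without any 1 library other than DMSO replicate 3 or rosiglitazone replicate 1, 1 was higher. The hemidesmosome collagen col17a1a and the type I collagen col1a1b fell by 0.76 and 0.61, while col14a1a rose by 0.57 ± 0.10. Laminins, integrins and other matrix glycoproteins moved both ways, with 19 of 102 higher and 11 lower, or 6 to 7 lower without any 1 library other than rosiglitazone replicate 2. The fibronectin fn1b rose by 0.87 ± 0.11.

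Annexins and S100 proteins bind calcium and membranes. On a list assembled after values were seen, 11 of 27 fell and 1 rose, while 15 were not called. A pair of neighbouring genes moved in opposite directions. The gene anxa1c, on chromosome 5 from 65009764 to 65021736, fell from 277, 266, 255 and 278 to 143.9, 115.1, 133.4 and 122.7 FPKM (log2 -1.06 ± 0.06, adjusted p = 2.43e-07). The gene anxa1b, on chromosome 5 from 65022287 to 65037525 and on the same strand, rose from 63.8, 69.1, 63.5 and 70.27 to 144, 130, 127 and 136 FPKM (log2 1.01 ± 0.06, adjusted p = 2.43e-07). The genes anxa2a, s100v1 and icn2 fell by 1.05, 0.95 and 0.81.

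Ionocytes are the skin cells that move salt, acid and ammonia. Of 27 ionocyte genes 11 were higher and 1 lower. The sodium pump gene atp1a1a.4 rose from between 30.9 and 33.6 to between 39.9 and 45.5 FPKM (adjusted p = 9.59e-05), and the ionocyte factors foxi3a and gcm2 by 0.40 and 0.38. The single faller was the ammonia channel gene rhbg, from 6.69, 6.34, 6.87 and 7.62 to 1.84, 1.86, 2.06 and 2.38 FPKM (2.91-fold, adjusted p = 3.23e-07). It is listed on chromosome 16 from 29265796 to 29277164, minus strand.

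Over all genes tested 17.0% were called. The share was higher on the heat shock, integrated stress and Nrf2 lists and on the hypoxia list of the next paragraph (34.5%). It was near the background, at 18.2%, among p53 targets. The heat shock, integrated stress and Nrf2 lists had median levels of 25.0, 23.5 and 21.1 FPKM. Of all genes tested averaging 20 to 100 FPKM, 24.2% were called. Of 37 heat shock and chaperone genes 11 were higher and 1 lower (32.4% called), or 2 lower without rosiglitazone replicate 1. The cytosolic chaperone hsp70.3 rose from between 6.36 and 7.54 to between 10.9 and 12.1 FPKM, although its copies are nearly identical, and hsp90aa1.2 by 0.37 ± 0.04. The chaperone of the endoplasmic reticulum, hsp90b1, fell by 0.44 ± 0.08, as did its neighbours in that organelle pdia4 and sel1l, by 0.35 and 0.32. On the list of the integrated stress and unfolded protein responses, 7 of 41 were higher and 8 lower (36.6% called). The count of lower genes there was 4 or 5 without DMSO replicate 2 or 4 or rosiglitazone replicate 3. Of 36 Nrf2 and glutathione genes 7 were higher and 3 lower (27.8% called), the latter 0 or 1 without any of DMSO replicates 1, 3 and 4 and rosiglitazone replicates 2 and 3. The factor nfe2l2b, a paralog of Nrf2, went from 1.03, 0.915, 0.933 and 0.801 to 2.53, 2.73, 2.74 and 2.67 FPKM (2.23-fold, adjusted p = 6.35e-06). The count of higher genes was 3 or 4 without any of 5 libraries (DMSO replicates 1, 2 and 3 and rosiglitazone replicates 1 and 2). Of 33 p53 targets 3 were higher and 3 lower, and 1 was higher without DMSO replicate 2 or 4 or rosiglitazone replicate 3. Of 27 clock genes 3 were higher and 1 lower, and 1 was higher without DMSO replicate 1 or 3. None was lower without either of these or rosiglitazone replicate 3. The light-induced clock gene per2 rose by 0.38 ± 0.07.

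Glycolysis genes were lower in 10 of 42 cases and higher in 6. The enzymes gpib, pgk1 and pkma fell by 0.65 ± 0.09, 0.45 ± 0.08 and 0.35 ± 0.06, while the glucose carrier slc2a1a rose by 0.49 ± 0.12. Of 29 hypoxia genes 8 were higher and 2 lower, including the oxygen-sensing factor epas1a at 0.58 ± 0.08. The higher genes numbered 5 without DMSO replicate 1 or 3. Genes of the ear, placodes and lateral line were higher in 11 of 27 cases and lower in 1. The lower gene was eya4 (log2 -0.41), which is also the faller on the list of muscle regulators. The otolith genes oc90 and stm rose by 0.56 ± 0.13 and 0.38 ± 0.06. The count of higher genes was 6 without DMSO replicate 3 or rosiglitazone replicate 3, and that of lower genes 2 without the latter and 0 without DMSO replicate 4.

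Transcription factors as a class were called at about the rate of all genes. Of 1394 genes that the authors' family column marks as transcription factors, 165 were higher and 92 lower (18.4%). The families differed in their counts, with 49 of 195 homeobox genes higher and 12 lower, 6 of 16 T-box genes higher and 1 lower, and 3 of 51 HMG box genes higher and 12 lower. Of 554 C2H2 zinc finger genes 40 were higher and 20 lower. Differences between families were not tested. Outside the lists, the zinc finger factor klf11a went from 9.67, 9.001, 8.999 and 8.32 to 21.2, 24.0, 26.5 and 26.7 FPKM (2.64-fold, adjusted p = 8.76e-08).

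Levels in the GW9662 libraries are set beside those of rosiglitazone for 5 of these genes, although the doses, 75 and 25 µM, differ. The 5 genes were not chosen by a rule. They do not show how many of the called genes differ, or are alike, between the compounds. The ammonia channel rhbg was at 6.88 ± 0.540 FPKM in DMSO, 2.04 ± 0.250 with rosiglitazone and 9.19 ± 0.926 with GW9662 (SD, n = 4). The gene anxa1b was at 66.7 ± 3.52, 134 ± 7.33 and 66.7 ± 4.44 FPKM, and cyp26a1 at 15.3 ± 1.22, 45.3 ± 2.86 and 18.02 ± 1.69 FPKM, in the same order. In these 3 genes the direct test of rosiglitazone against GW9662 passed (adjusted p = 8.95e-09, 4.74e-08 and 4.69e-08). The gene abcb5 was at 12.5 ± 0.796, 41.8 ± 1.90 and 39.1 ± 2.86 FPKM, and and1 at 19.6 ± 0.773, 6.33 ± 0.726 and 6.22 ± 1.13 FPKM. In these 2 genes the direct test did not pass (log2 0.10, adjusted p = 0.265, and log2 0.03, adjusted p = 0.86).

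Of the 2450 called genes, 639 were on the 57 gene lists first drawn up, which cover 2102 tested genes, and 1811 were on none of them. Cholesterol synthesis, tailbud and lens genes are on these lists too. They gave 17 of 22 and 27 of 51 genes higher, and 19 of 24 lower, in that order.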

How the data were processed

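Whole-embryo RNA was sequenced by the authors. Per the submitters' processing notes, HISAT2 2.0.5 and featureCounts 1.5.0-p3 were used; no build is named, so coordinates are as listed (build not given in the sources used here). The notes describe directional and non-directional library preparation, so overlapping genes on opposite strands are uncertain, as are near-identical copies. The deposited values are FPKM per gene and library, computed by the authors. FPKM times gene length gave whole fragments for all values (tolerance 0.001), from which depth was taken. The depth implied by the FPKM scale was not the fragment total. It was 0.957 times that total in rosiglitazone replicate 1 and 1.04 times in rosiglitazone replicate 2, the extremes of the 12 libraries. The deposited values thus carry a further factor per library, which scaling to library totals removes.

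The model was limma 3.58.1 (R 4.3.3) with a variance trend on log2(FPKM + 0.5), fitted to all 12 libraries over 14433 genes, with two-sided tests and Benjamini-Hochberg adjustment at 0.05. Python 3.11.15 with pandas 2.3.3, numpy 2.4.6 and matplotlib 3.10.9 drew the plots. In simulated data with 50 genes at each size, 54, 86, 100 and 100% of changes of 1.25, 1.5, 2 and 4-fold were recovered, with 11 false calls of 181. The simulated noise of all 12 libraries followed the spread of the DMSO libraries alone. Between real replicates, chi-square per degree of freedom was 3.06 to 6.63 in DMSO and 4.56 to 14.6 with rosiglitazone. Far fewer genes were changed than were called in the data, so these rates need not hold there.

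The comparison and the gene lists were chosen with earlier results of these data known, and 7 lists were added after values were seen (P450 genes, organic ion carriers, pteridines, purines, annexins, vitamin D and steroids, BMP-dependent factors). Genes were named by rule. It took the 15 largest rises and falls with at least 2 FPKM in a group, no overlap and a proper symbol. From each list first drawn up it took up to 4 called members with the smallest adjusted p, which are not typical of their list. The PPAR genes and the minority side of such a list were also named. Any further gene named was picked with its values in view. Equal replicate numbers did not pair libraries. Alternatives were pseudocounts, filters, scalings, a count model (voom), the 8 libraries alone, a replicate block and leaving out each library. A search of promoters for motifs was not run. 1 gene is not reported here.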

Additional observations from a re-analysis of the deposited data

Results flagged for a closer look

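Among 368 groups of 4 libraries, 1 library lay apart from the other 3 in 17, where its gap to the nearest other library took up most of the range (Dixon's criterion). Chance flags about 1 in 20 groups. In DMSO, replicate 4 was low for polr1d, at 2.27 FPKM against 12.9 to 13.5, and high for dct at 61.5, polr1a at 13.4 and ugt5a1 at 0.0267, where the others were at 0. DMSO replicate 3 was high for cyp27b1 at 3.04 and mef2d at 21.9, and low for gch2 at 182. DMSO replicate 2 was low for pex7 at 4.82, and DMSO replicate 1 was high for tdgf1 at 7.51. With rosiglitazone, replicate 1 was high for uraha at 94.3, eya4 at 8.91 and grp at 1.56, and low for spry4 at 22.3. Rosiglitazone replicate 3 was high for acsl1b at 22.2 and low for hoxc13a at 12.7, and replicate 4 was high for isl2a at 23.0 and vox at 6.70. All values are FPKM. In these genes other than polr1d and hoxc13a, the call of the comparison was the same without the library named.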

How the results depend on the processing

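The count of called genes stayed within 1.5 times 2450 under every alternative run. Leaving out 1 library gave 1837 to 2494. A pseudocount of 0.1 or 1 gave 2426 or 2459, no filter 2239 of 26145 genes, a stricter filter 1949 of 8190, and the 8 libraries alone 2049. Median-ratio scaling gave 2522 and voom on recovered fragments 2548. Quantile normalization gave 2802 (1403 higher), and scaling to library totals gave 2652, of which 47.5% were higher against 54.7%. The fit with a replicate block called 2433, although libraries with equal numbers did not deviate together (correlations from -0.0103 to 0.0751, and 0 of 4 best with their own number). Among the values refitted for 184 named genes, 3219 kept direction and side of the threshold, 44 lost the call, 12 gained it and 1, mt-co1, was 0 after quantile normalization. Nuclear respiratory chain genes lower numbered 6, against 26 and 21 under quantile normalization and library totals, and proteasome genes 4, against 22 under each; the cause was not tested. Depth limits low genes, of which 8.83% were called below 2 FPKM.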
